A study of Mus musculus with 8 samples.

Results

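The genes described here are 10 genes of the unfolded protein response and of the ATF4 stress response, out of 18631 genes in the deposited tables. They are the sensors Ern1, Eif2ak3 and Atf6, the transcription factors Xbp1, Atf4 and Ddit3, and the stress-induced genes Ppp1r15a, Trib3, Chac1 and Sesn2. They were chosen by name, with earlier results of these data in view: Chac1 and Xbp1 were picked out by their lower values under THZ1. For that reason the values of Chac1 and Xbp1 in every comparison that uses a THZ1 library are given as a description, with no test, and support nothing here. The other 8 were added for their known place in the pathway.

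The libraries come from 2 mouse kidney epithelial cell lines. The line labelled pkd1(PH) is Pkd1+/-, called heterozygous below, and the line labelled null(PN) is Pkd1-/-. Pkd1 encodes polycystin-1, and mutations of the human gene cause autosomal dominant polycystic kidney disease. THZ1, which binds the transcriptional kinase CDK7 covalently and inhibits it, was given at 50 nM for 6 h, and the controls had its solvent DMSO. This makes 4 groups of 2 libraries: heterozygous DMSO, heterozygous THZ1, null DMSO and null THZ1. All 4 groups grew in the same serum-containing medium, which included insulin, transferrin, selenium, T3, nystatin and interferon gamma. There is 1 line per genotype, so genotype and line cannot be told apart. The labels do not say that replicates were separate cultures, so p-values reflect only how far these libraries spread, which may be technical.

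The unfolded protein response is the reaction of a cell to misfolded protein in the endoplasmic reticulum (ER). IRE1, the product of Ern1, cuts Xbp1 mRNA so that it encodes an active transcription factor. PERK, the product of Eif2ak3, phosphorylates the initiation factor eIF2, which lowers general translation and raises translation of Atf4 mRNA. ATF6 is released from the ER membrane by proteolysis and enters the nucleus. Other eIF2 kinases also feed into ATF4, and that shared branch is called the integrated stress response. Much of this regulation acts on splicing, translation and protein, which FPKM values do not show.

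Levels are FPKM, fragments scaled by transcript length and by mapped fragments, as deposited. Libraries held an estimated 17.32 to 18.26 M (mega) fragments, with 14007 to 15439 genes above 0 in a library. Genes just above 0 (up to 0.2 FPKM) numbered 3378 in null DMSO replicate 1 and 3129 in null THZ1 replicate 2, more than the 2230 to 2586 elsewhere. Pkd1 was at 4.58 and 5.30 FPKM in heterozygous DMSO libraries, 3.71 and 4.20 in heterozygous THZ1, 1.69 and 1.32 in null DMSO, and 1.22 and 1.21 in null THZ1 libraries, so the labels and the gene's level went the same way. Of the kidney epithelium markers, Cdh16, Krt8, Krt18, Pax2 and Pax8 were expressed, whereas Epcam (0.05 to 0.24 FPKM) and Cdh1 (0.10 to 0.42 FPKM) were near 0. Summed FPKM of the 10 epithelium markers was 1044 to 1129 in heterozygous DMSO, 1076 to 1108 in heterozygous THZ1, 807 to 815 in null DMSO and 766 to 775 in null THZ1 libraries. Cdh16 went against this sum, with 175.73 and 188.46 FPKM in heterozygous DMSO and 185.40 and 182.56 in heterozygous THZ1 libraries. It had 259.03 and 268.94 in null DMSO and 313.64 and 299.39 in null THZ1 libraries. The sum of 10 fibroblast and mesenchyme markers was 15.6 to 16.7, 15.4 to 15.5, 38.1 to 38.5 and 46.2 to 49.1 in the same order. Of those 10, 3 had a mean of at least 1 FPKM. The 8 endothelium markers summed to 0.09 to 0.26 FPKM, and the 9 leukocyte markers to 7.95 to 12.84, with 3 of the 9 listed at 0 in all libraries. Of those 9, 2 had a mean of at least 1 FPKM, Csf1r (3.41 to 9.68) and Cd68 (1.72 to 4.82). The part of these marker differences in the results was not tested.

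In RefSeq (GRCm38.p6) the sensors lie as follows: Ern1 at chr11:106397620-106487796, Eif2ak3 at chr6:70844484-70905241 and Atf6 at chr1:170704457-170868585. The transcription factors are Xbp1 at chr11:5520641-5525993, Atf4 at chr15:80255184-80257545 and Ddit3 at chr10:127290793-127296291. The downstream genes are Ppp1r15a at chr7:45522917-45526268, Trib3 at chr2:152337425-152344060, Chac1 at chr2:119351242-119354326 and Sesn2 at chr4:132492804-132510456. Groups were compared with limma on log2(FPKM + 1), and a gene was called at a Benjamini-Hochberg adjusted p below 0.05 over 10731 genes. All 10 members passed the filter, a mean of at least 1 FPKM over the 8 libraries. Log2 differences below are on the log2(FPKM + 1) scale, with limma's standard error (SE), and understate the change of low genes. FPKM is relative to the library, so less RNA of a gene per cell, fewer cells that hold it and more RNA of other genes cannot be told apart. The choice of scaling matters most for THZ1 in null cells. There, the median difference of all tested genes was -0.17 on the deposited scale and 0.04 after median-of-ratios scaling. Differences of the members in that comparison are therefore to be read against -0.17.

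Promoter sequences are shown for 4 members: Chac1, Trib3 and Xbp1, which had the lowest values relative to DMSO in null cells under THZ1, and Ppp1r15a, which had the largest log2 increase there. Each runs 5′ to 3′ on the gene's own strand over the 250 bases before the annotated start, from RefSeq on GRCm38.p6. Capitals mark a match to a searched motif. The Chac1 window is chr2:119350992-119351241 on the + strand, Trib3 is chr2:152344061-152344310 on the - strand, Xbp1 is chr11:5520391-5520640 on the + strand and Ppp1r15a is chr7:45526269-45526518 on the - strand.
Chac1: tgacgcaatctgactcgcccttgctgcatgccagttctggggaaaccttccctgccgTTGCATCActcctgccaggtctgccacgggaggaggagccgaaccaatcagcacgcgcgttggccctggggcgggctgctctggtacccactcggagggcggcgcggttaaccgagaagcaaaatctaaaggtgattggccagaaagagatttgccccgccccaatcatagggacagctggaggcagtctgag
Trib3: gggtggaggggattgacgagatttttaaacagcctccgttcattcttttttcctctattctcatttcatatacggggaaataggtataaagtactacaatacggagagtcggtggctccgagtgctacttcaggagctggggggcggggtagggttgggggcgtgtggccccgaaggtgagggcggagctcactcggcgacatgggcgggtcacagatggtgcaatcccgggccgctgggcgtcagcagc
Xbp1: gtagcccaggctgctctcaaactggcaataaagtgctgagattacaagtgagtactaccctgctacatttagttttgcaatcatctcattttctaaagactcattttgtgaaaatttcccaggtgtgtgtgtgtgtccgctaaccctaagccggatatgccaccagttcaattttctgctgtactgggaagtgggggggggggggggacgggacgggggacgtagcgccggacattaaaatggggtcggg
Ppp1r15a: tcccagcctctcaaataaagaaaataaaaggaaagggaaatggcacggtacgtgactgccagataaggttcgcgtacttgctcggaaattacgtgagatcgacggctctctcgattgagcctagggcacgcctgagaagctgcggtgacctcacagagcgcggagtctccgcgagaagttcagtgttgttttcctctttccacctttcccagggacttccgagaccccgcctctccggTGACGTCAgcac
The search covered 4 motifs on both strands: TGATGNAA (the core of the amino acid response element that ATF4 binds), TGACGTGG (the unfolded protein response element, UPRE), TGACGTCA (the cyclic AMP response element, CRE) and the ER stress response element (ERSE, searched by its name's consensus). Chac1 held TTGCATCA, a match to the first on the opposite strand, 186 to 193 bases upstream of the start. Ppp1r15a held the palindromic CRE, 5 to 12 bases upstream. No other match was found in the 9 members with an entry in the table, and Atf6 had none. Among 32851 promoters of the same length, 3.45% held TGATGNAA, 1.55% the CRE, 0.563% the UPRE and 0.113% the ERSE. Among the 8689 tested genes with a promoter entry, the shares were 2.20% for TGATGNAA, 3.14% for the CRE, 0.921% for the UPRE and 0.15% for the ERSE. A match is only a stretch of letters, and its absence says nothing about the factor.

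**Figure D1:**
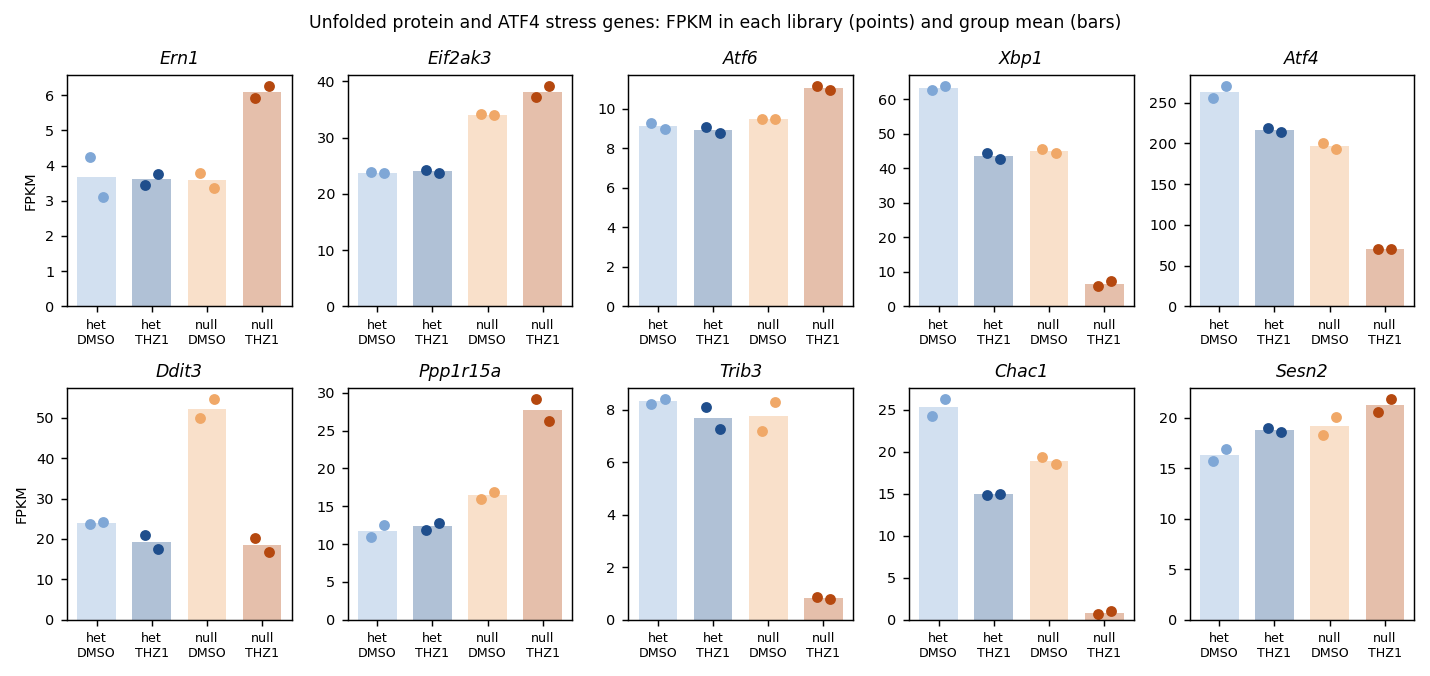
Level of each of the 10 genes (y axis, FPKM from 0, with its own scale in each panel) in the 4 groups (x axis); points are libraries and bars are means of 2 libraries. Xbp1, Atf4, Trib3 and Chac1 are lowest in null THZ1 libraries, and Ern1, Eif2ak3, Atf6, Ppp1r15a and Sesn2 are highest there. Ddit3 is highest in null DMSO libraries.

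The first comparison, null against heterozygous cells under DMSO, asks what differs between the lines before the drug. Genes of the PERK branch differed in both directions: null cells had more mRNA of Eif2ak3, the kinase, and of Ddit3 and Ppp1r15a, which lie downstream, and less of Atf4 itself. Xbp1 and Chac1 were also lower and Sesn2 higher. The drug comparisons that led to the choice of Xbp1 and Chac1 use these same DMSO libraries. The values and calls of both genes here are therefore not independent of that choice and support nothing. Of the 10 members, 4 were called higher and 3 lower, beside 29.0% and 41.0% of all tested genes. These counts include Xbp1 and Chac1, both among the lower calls, so nothing is read from them. Ern1, Atf6 and Trib3 were not called.

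Among the sensors, Eif2ak3 had 23.93 and 23.63 FPKM in heterozygous and 34.12 and 34.01 FPKM in null DMSO libraries. The null libraries were both above the heterozygous ones, by 1.43-fold in the means, and the log2 difference was 0.50 (SE 0.05, limma adjusted p = 8.639e-07). Ern1 was at 4.24 and 3.10 FPKM in heterozygous and 3.80 and 3.37 in null DMSO libraries, which overlapped (log2 difference -0.02, SE 0.11, limma adjusted p = 0.894). Atf6 was at 9.29 and 8.99 against 9.47 and 9.49 FPKM, with no overlap but a log2 difference of only 0.05 (SE 0.06, limma adjusted p = 0.497).

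Of the transcription factors, Atf4 had the highest level of the members on the per-length FPKM scale. It was at 255.86 and 270.89 FPKM in heterozygous and 200.43 and 192.87 in null DMSO libraries. Both null libraries were lower, and the log2 difference was -0.42 (SE 0.04, limma adjusted p = 1.523e-06). Xbp1 had 62.77 and 63.94 FPKM in heterozygous against 45.58 and 44.43 in null DMSO libraries, which is 71.0% of the heterozygous mean (log2 difference -0.48, SE 0.07, limma adjusted p = 7.09e-05). Ddit3, which encodes the pro-apoptotic factor CHOP, went the other way. It was at 23.70 and 24.24 FPKM in heterozygous and 49.86 and 54.68 in null DMSO libraries, 2.18-fold higher in the means (log2 difference 1.09, SE 0.09, limma adjusted p = 2.065e-07). Ddit3 overlaps Mbd6 and Mars1 in the annotation, and how the authors handled strand is not known here, so reads of these genes may not be separable. In DMSO libraries Mbd6 was at 22.92 and 26.18 FPKM in heterozygous and 23.27 and 27.46 in null cells, and Mars1 at 67.63 and 67.59 against 53.38 and 53.70.

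Among the downstream genes, Ppp1r15a encodes GADD34, which directs a phosphatase to eIF2 and so ends the PERK signal. It had 10.94 and 12.48 FPKM in heterozygous and 15.99 and 16.90 in null DMSO libraries (log2 difference 0.46, SE 0.07, limma adjusted p = 0.000105). The groups did not overlap. Chac1, a glutathione-degrading enzyme, had 24.30 and 26.29 FPKM in heterozygous and 19.31 and 18.55 in null DMSO libraries (log2 difference -0.40, SE 0.09, limma adjusted p = 0.00106). Trib3, a pseudokinase that is induced by ATF4 and CHOP, had 8.23 and 8.42 against 7.21 and 8.31 FPKM, which overlapped (log2 difference -0.09, SE 0.08, limma adjusted p = 0.336). Sesn2, a leucine sensor that restrains mTORC1, had 15.74 and 16.95 against 18.30 and 20.09 FPKM, with both null libraries higher (log2 difference 0.22, SE 0.06, limma adjusted p = 0.00655). The Sesn2 call was lost without heterozygous DMSO replicate 1 (limma adjusted p = 0.0570) and without null DMSO replicate 2 (limma adjusted p = 0.0823).

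**Figure D2:**
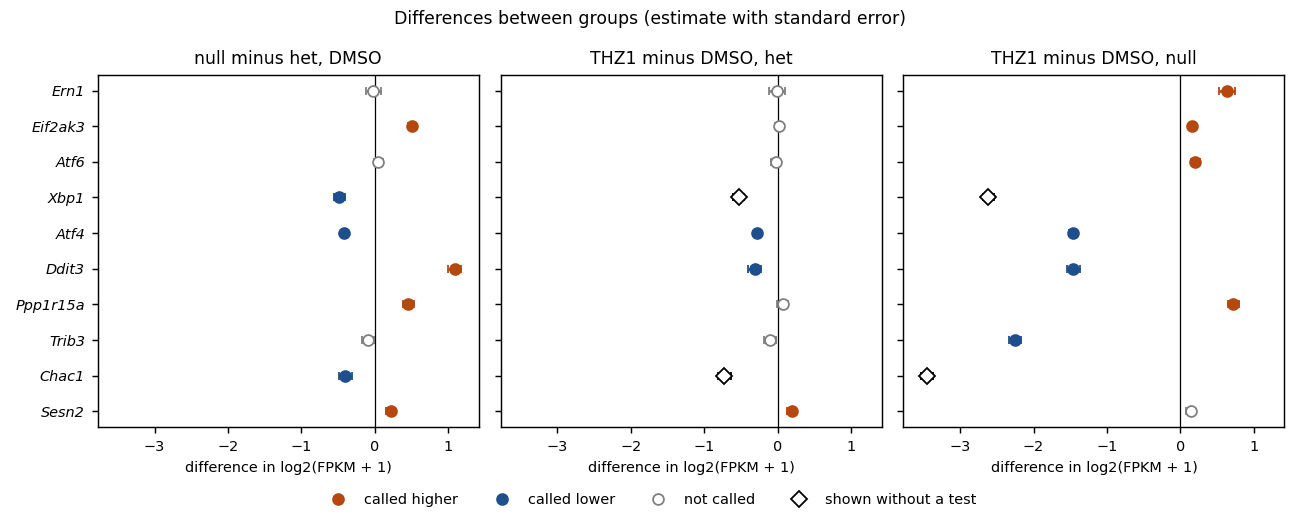
Difference in log2(FPKM + 1) (x axis) of each gene (y axis) for null minus heterozygous cells under DMSO and for THZ1 minus DMSO in each line; symbols are limma estimates, bars are standard errors, filled symbols were called, open circles were not and diamonds were not tested. Atf4 is called lower in all 3 panels (-0.42, -0.28 and -1.47), whereas Ddit3 is higher in null cells under DMSO (1.09) and lower with THZ1 in both lines (-0.31 and -1.46).

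The next comparisons ask what THZ1 does in each line. They use the same DMSO libraries as the comparison of lines, so their differences are not independent of it. A high null DMSO value raises the difference between the lines and lowers the THZ1 difference in null cells. A high heterozygous DMSO value lowers both the difference between the lines and the THZ1 difference in heterozygous cells. In heterozygous cells the sensors stayed near their DMSO levels, Atf4 and Ddit3 fell, and Sesn2 rose. Of the 8 tested members 1 was called higher and 2 lower, beside 12.2% and 10.3% of all tested genes. These shares are from the drug comparison that also chose Chac1, so nothing is read from them.

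In heterozygous cells Atf4 had 219.05 and 213.54 FPKM with THZ1, both below the DMSO libraries given above, and 82.1% of their mean (log2 difference -0.28, SE 0.04, limma adjusted p = 0.00113). Ddit3 had 20.93 and 17.52 FPKM, also below both DMSO libraries (log2 difference -0.31, SE 0.09, limma adjusted p = 0.0266). Sesn2 had 18.98 and 18.63 FPKM, above both (log2 difference 0.19, SE 0.06, limma adjusted p = 0.0418). Atf4 alone held its call whichever library was left out. Ddit3 lost it without heterozygous DMSO replicate 1 (limma adjusted p = 0.0915), DMSO replicate 2 (limma adjusted p = 0.0927) or THZ1 replicate 2 (limma adjusted p = 0.223). Sesn2 lost it without heterozygous DMSO replicate 1 (limma adjusted p = 0.225), THZ1 replicate 1 (limma adjusted p = 0.187) or THZ1 replicate 2 (limma adjusted p = 0.130). With genes of low mean kept in, neither Ddit3 (limma adjusted p = 0.147) nor Sesn2 (limma adjusted p = 0.108) was called. Sesn2 also lost its call with upper-quartile scaling (limma adjusted p = 0.0517) and with equal FPKM totals (limma adjusted p = 0.120).

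The 5 members without a call in heterozygous cells had log2 differences of -0.10 to 0.07. Ern1 had 3.45 and 3.76 FPKM with THZ1, Eif2ak3 had 24.29 and 23.77, and Atf6 had 9.10 and 8.80. Each of these sensors overlapped its DMSO libraries. Ppp1r15a had 11.85 and 12.84 FPKM and overlapped DMSO, with a log2 difference of 0.07 (limma adjusted p = 0.509). Trib3 had 8.10 and 7.29 FPKM, both just under DMSO, with a log2 difference of -0.10 (limma adjusted p = 0.399). Of the untested pair, Xbp1 had 44.31 and 42.70 FPKM and Chac1 had 14.79 and 15.02, which are 68.7% and 58.9% of their DMSO means. Neither overlapped its DMSO libraries.

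In null cells with THZ1, all 3 sensors and Ppp1r15a rose, and Atf4, Ddit3 and Trib3 fell. Of the 8 tested members 4 were called higher and 3 lower, beside 24.6% and 51.1% of all tested genes, and again nothing is read from this because the same comparison chose Chac1 and Xbp1.

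Ern1 had 5.91 and 6.27 FPKM in null THZ1 libraries against 3.80 and 3.37 with DMSO, 1.70-fold in the means (log2 difference 0.63, SE 0.11, limma adjusted p = 0.000151). These are the only libraries in which Ern1 exceeded 5 FPKM. Eif2ak3 had 37.13 and 39.24 FPKM, above 34.12 and 34.01 with DMSO, a small difference of 0.16 on the log2 scale (SE 0.05, limma adjusted p = 0.00792). Atf6 had 11.18 and 10.96 FPKM against 9.47 and 9.49 (log2 difference 0.20, SE 0.06, limma adjusted p = 0.00843). The small rises of Eif2ak3 and Atf6 depend on settings. Over all settings tried, the log2 difference ran from 0.07 to 0.40 for Eif2ak3 and from 0.12 to 0.43 for Atf6. With libraries scaled to equal FPKM totals, neither was called (limma adjusted p = 0.207 for Eif2ak3 and 0.105 for Atf6), and Eif2ak3 lost its call without null THZ1 replicate 2 (limma adjusted p = 0.0690). Without both null libraries that had more genes just above 0, limma's adjusted p was 0.123 for Eif2ak3 and 0.0546 for Atf6, and 5 of 8 members were called in place of 7.

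Atf4 had 69.90 and 70.80 FPKM in null THZ1 libraries, 35.8% of the DMSO mean (log2 difference -1.47, SE 0.04, limma adjusted p = 5.003e-11). Ddit3 had 20.19 and 16.73 FPKM, 35.3% of its DMSO mean (log2 difference -1.46, SE 0.09, limma adjusted p = 1.561e-08), which is about its level in heterozygous THZ1 cells. Both genes were thus lowered by nearly the same factor, from DMSO levels that had differed from heterozygous cells in opposite directions. The overlapping genes Mbd6, at 14.25 and 15.75 FPKM, and Mars1, at 40.88 and 41.85, were also at their lowest in null THZ1 libraries. Trib3 had 0.86 and 0.80 FPKM, 10.7% of the DMSO mean (log2 difference -2.26, SE 0.08, limma adjusted p = 3.771e-10). Its other 6 libraries lay between 7.21 and 8.42 FPKM.

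Ppp1r15a, whose product undoes eIF2 phosphorylation, rose. It had 29.19 and 26.27 FPKM in null THZ1 libraries, 1.69-fold the DMSO mean (log2 difference 0.72, SE 0.07, limma adjusted p = 1.564e-06). Tulp2, which overlaps it, was at 0 to 0.07 FPKM in all libraries. Sesn2 had 20.62 and 21.89 FPKM, both above DMSO, but was not called (log2 difference 0.14, SE 0.06, limma adjusted p = 0.0528). Over all settings tried, Sesn2 ran from 0.04 to 0.38. It was called after median-of-ratios scaling (log2 difference 0.38, limma adjusted p = 0.000115) and without null DMSO replicate 2 (log2 difference 0.20, limma adjusted p = 0.0245). It was likewise called without null THZ1 replicate 1 (limma adjusted p = 0.0462), heterozygous DMSO replicate 1 (limma adjusted p = 0.0448) or heterozygous DMSO replicate 2 (limma adjusted p = 0.0450).

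The values that led to the choice of Chac1 and Xbp1 are these. Chac1 had 0.65 and 1.01 FPKM in null THZ1 libraries against 19.31 and 18.55 with DMSO, 4.38% of the DMSO mean. From the estimated depth and its single annotated transcript this stands for about 18.4 and 28.9 fragments, against 562 and 547 with DMSO, so the THZ1 level is less precise. Xbp1 had 5.78 and 7.30 FPKM against 45.58 and 44.43, 14.5% of the DMSO mean. The log2 differences were -3.45 for Chac1 and -2.62 for Xbp1, beside -2.26 for Trib3, and no other member was below -1.47.

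Whether the drug response differs between the lines was tested by the difference of the 2 responses, null minus heterozygous. Of the 8 tested members 3 were called higher and 3 lower, beside 15.1% and 45.1% of all tested genes. The response was higher in null cells for Ern1 (0.64, SE 0.15, limma adjusted p = 0.00301), Ppp1r15a (0.65, SE 0.10, limma adjusted p = 0.000192) and Atf6 (0.23, SE 0.09, limma adjusted p = 0.0342). It was lower for Trib3 (-2.15, SE 0.12, limma adjusted p = 9.318e-08), Atf4 (-1.19, SE 0.06, limma adjusted p = 6.068e-08) and Ddit3 (-1.15, SE 0.13, limma adjusted p = 9.152e-06). Eif2ak3 (0.15, limma adjusted p = 0.0771) and Sesn2 (-0.05, limma adjusted p = 0.633) were not called. Eif2ak3 was called after median-of-ratios (0.39, limma adjusted p = 0.000277) or upper-quartile scaling (0.36, limma adjusted p = 0.000369), and without null THZ1 replicate 1 (limma adjusted p = 0.0478). The Atf6 call was lost without heterozygous DMSO replicate 1 (limma adjusted p = 0.0786), heterozygous THZ1 replicate 1 (0.0633) or 2 (0.118), null DMSO replicate 1 (0.0783) or 2 (0.0748), or null THZ1 replicate 1 (0.0722). The Atf6 call was also lost with libraries scaled to equal FPKM totals (0.19, limma adjusted p = 0.0902). It was lost too without both null libraries that had more genes just above 0 (0.24). Over all settings tried, the Atf6 value ran from 0.19 to 0.46, and it was called in 9 of 17 settings, the main one included. Without a test, Xbp1 stood at -2.08 and Chac1 at -2.73.

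The last comparison sets the lines against each other under THZ1. Of the 8 tested members, 5 were called higher and 2 lower in null cells, beside 25.1% and 58.1% of all tested genes. The median difference of all tested genes was -0.28 on the deposited scale and -0.01 after median-of-ratios scaling. Member values in this comparison are therefore to be read against -0.28. Ppp1r15a was 2.25-fold higher in the means (log2 difference 1.11, SE 0.07, limma adjusted p = 1.393e-08). Eif2ak3 (0.65), Ern1 (0.62) and Atf6 (0.28) were higher and Trib3 (-2.25) and Atf4 (-1.61) lower on the log2 scale, with limma adjusted p of 0.000864 or less. Sesn2 was at 0.17 (limma adjusted p = 0.0223) and lost its call without heterozygous THZ1 replicate 1 (limma adjusted p = 0.0577) or 2 (0.0972), or null THZ1 replicate 2 (0.135). Ddit3, the member with the largest difference between the lines under DMSO, overlapped under THZ1 (log2 difference -0.06, SE 0.09, limma adjusted p = 0.563). After median-of-ratios scaling it was at 0.24 (limma adjusted p = 0.0361) and after upper-quartile scaling at 0.22 (limma adjusted p = 0.0426), so its direction under THZ1 depends on the scaling. Xbp1 was at -2.57 and Chac1 at -3.13, with no test.

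The rest of the pathway was followed through 7 lists of 124 genes, which exclude the members. Ero1a is both in the list of ER chaperones and foldases and in that of stress regulators linked to ATF4 and CHOP. Its calls are counted in both lists. In null cells with THZ1, the list counts are to be read beside the 24.6% of all tested genes called higher and the 51.1% called lower. Of 22 ER chaperones and foldases tested, 13 were called higher and 4 lower, with a median log2 difference of 0.17 beside -0.17 for all tested genes. Of 21 genes of ER-associated degradation and translocation, 11 were called higher and 7 lower, with a median of 0.13. Ero1a, the oxidase that supplies disulfide bonds, rose from 14.42 and 13.93 to 24.14 and 23.28 FPKM (log2 difference 0.70, SE 0.07, limma adjusted p = 6.882e-07). P4hb, a protein disulfide isomerase, rose from 305.72 and 302.29 to 425.21 and 416.33 FPKM (log2 difference 0.47, limma adjusted p = 2.359e-07). Sec61b and Sec61g, subunits of the translocon, rose by 0.44 and 0.39 on the log2 scale (limma adjusted p = 3.706e-05 and 9.779e-05).

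Other genes of these lists fell in null cells. Syvn1, the ubiquitin ligase of ER-associated degradation, fell from 40.33 and 40.66 to 21.76 and 22.20 FPKM (log2 difference -0.85, limma adjusted p = 5.474e-09). Herpud1, a partner of that ligase, fell from 41.37 and 41.29 to 23.97 and 26.18 FPKM (log2 difference -0.70, limma adjusted p = 5.509e-08). Dnajb9, a co-chaperone of the ER known as an Xbp1 target, fell by 0.56 on the log2 scale and Cnpy2 by 0.64 (limma adjusted p = 1.848e-06 and 2.216e-07). In heterozygous cells 2 chaperones were called higher, 2 lower and 18 neither, near the 12.2% higher and 10.3% lower of all tested genes, and 1 of the 21 degradation and translocation genes was called, higher.

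Of 10 tested sensor partners and processing genes, 3 were called higher and 4 lower in null cells, with a median of 0.04. Creb3, a membrane-bound transcription factor of the ATF6 type, had 48.99 and 51.46 FPKM with DMSO and 19.64 and 19.76 with THZ1 (log2 difference -1.31, SE 0.06, limma adjusted p = 1.838e-09). Traf2, an adaptor that binds IRE1, fell from 17.66 and 17.72 to 8.34 and 8.67 FPKM (log2 difference -0.98, limma adjusted p = 2.112e-08). Tmbim6, an ER membrane protein that restrains IRE1, rose from 260.99 and 258.62 to 378.18 and 357.66 FPKM (log2 difference 0.50, limma adjusted p = 3.742e-07), and Bcap31 rose by 0.43 (limma adjusted p = 3.575e-06).

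In the eIF2, ATF4 target and stress regulator lists the share of genes called lower with THZ1 was near the 51.1% of all tested genes. Of 16 eIF2 kinases, phosphatase and eIF2B genes 2 were called higher and 9 lower, with a median of -0.26. Eif2ak2, the kinase PKR, fell from 16.58 and 15.65 to 8.13 and 9.39 FPKM (log2 difference -0.81, limma adjusted p = 4.739e-06), and Eif2s1, the eIF2 subunit that is phosphorylated, fell by 0.52 (limma adjusted p = 5.04e-06). Nck1 and Ppp1ca, the catalytic subunit that GADD34 recruits, rose by 0.33 and 0.22 (limma adjusted p = 0.000195 and 0.000771). Of 18 ATF4 targets in amino acid synthesis and transport 2 were called higher and 10 lower, with a median of -0.24. The amino acid transporters Slc1a4, from 8.21 and 8.34 to 3.42 and 3.70 FPKM, and Slc38a2, from 105.90 and 107.30 to 50.80 and 55.05 FPKM, fell by 1.03 and 1.00 on the log2 scale (limma adjusted p = 5.052e-08 and 1.639e-09). Phgdh, the first enzyme of serine synthesis, rose by 0.21 (limma adjusted p = 0.000531). Cth, which makes cysteine, was higher by 0.28 (limma adjusted p = 0.0107) and was not called without null DMSO replicate 1 (log2 difference 0.20) or null THZ1 replicate 1 (0.20), with equal totals, or with genes of low mean kept in, with limma's adjusted p up to 0.119.

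Of 19 stress regulators linked to ATF4 and CHOP, 3 were called higher and 11 lower, with a median of -0.25. Stc2, a secreted glycoprotein, fell from 27.01 and 29.90 to 13.04 and 13.59 FPKM (log2 difference -1.04, limma adjusted p = 5.604e-09). Nupr1, a stress-induced chromatin protein, fell from 78.20 and 78.74 to 43.76 and 37.14 FPKM (log2 difference -0.94, limma adjusted p = 5.953e-08). Bbc3, the pro-apoptotic protein PUMA, rose from 14.19 and 15.46 to 24.46 and 22.59 FPKM (log2 difference 0.63, limma adjusted p = 3.117e-05). By limma, 0 of the 12 cytosolic aminoacyl-tRNA synthetases were called higher (0 at an unadjusted p below 0.05) and 9 lower, with a median of -0.34. Iars and Yars fell by 0.72 and 0.63 (limma adjusted p = 4.113e-08 and 7.721e-07).

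Several of these directions turn on the scaling. After median-of-ratios scaling, THZ1 in null cells called 16 chaperones higher and 3 lower and 14 degradation and translocation genes higher and 5 lower. The sensor partners then had 6 higher and 3 lower, eIF2 genes 7 and 6, ATF4 amino acid targets 5 and 6, stress regulators 9 and 5, and synthetases 4 and 6. Lower calls thus outnumbered higher ones on the deposited scale but not after rescaling in the sensor partner, eIF2 and stress regulator lists. They outnumbered them under both for the ATF4 amino acid targets and the synthetases, and higher calls did so under both for the first pair of lists. Over all tested genes, 32.6% of the calls were higher on the deposited scale and 53.9% after median-of-ratios scaling. For the difference between the responses the share moved from 25.1% to 53.6%, and for the lines under THZ1 from 30.1% to 49.4%. In heterozygous cells it moved from 54.3% to 33.6% with scaling to equal totals.

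**Figure D3:**
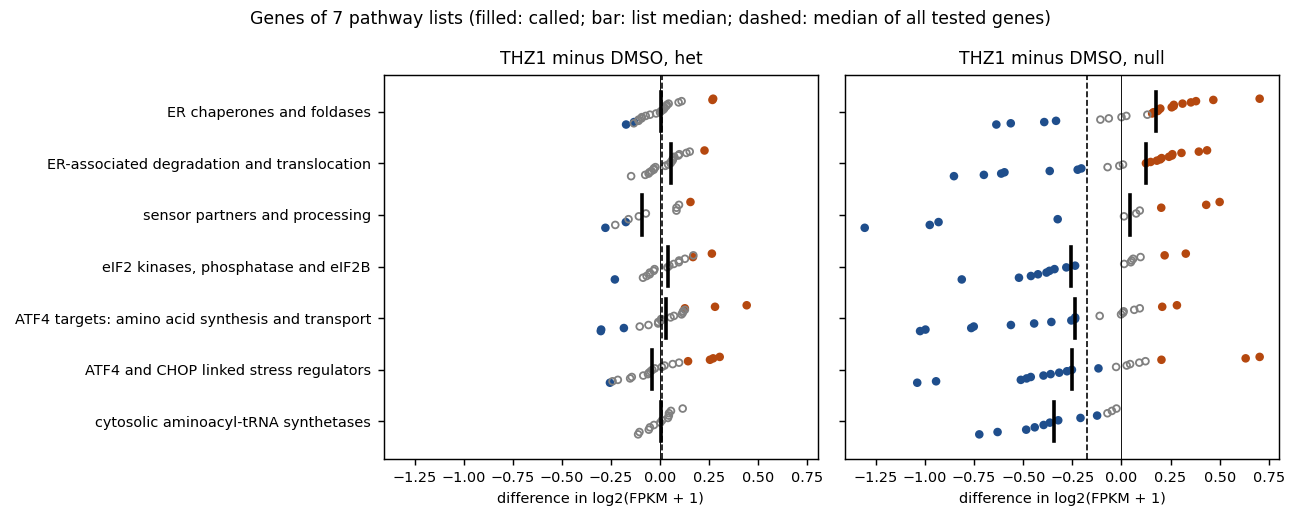
Difference in log2(FPKM + 1) with THZ1 (x axis) for the tested genes of 7 pathway lists (y axis) in heterozygous and in null cells; each circle is a gene, filled where called, the thick bar is the list's median and the dashed line the median of all tested genes. In null cells the medians of chaperones (0.17) and of degradation and translocation genes (0.13) lie above the dashed line at -0.17, and that of the synthetases (-0.34) lies below it.

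In heterozygous cells, where THZ1 called 12.2% of all tested genes higher and 10.3% lower, there were 3 higher and 3 lower of 18 ATF4 amino acid targets, 4 and 1 of 19 stress regulators, 2 and 1 of 16 eIF2 genes, 1 and 2 of 10 sensor partners, and by limma 0 of 12 synthetases (0 higher and 2 lower at an unadjusted p below 0.05). Slc7a1, a cationic amino acid transporter, fell from 71.18 and 68.72 to 56.03 and 57.22 FPKM (log2 difference -0.30, SE 0.05, limma adjusted p = 0.00176). Atf5, an ATF4-related transcription factor, rose from 28.10 and 31.09 to 35.32 and 38.15 FPKM (log2 difference 0.30, SE 0.06, limma adjusted p = 0.00473). Hspa5, the ER chaperone BiP that holds the sensors inactive, was lower, at 349.51 and 353.84 FPKM against 393.79 and 399.55 (log2 difference -0.17, limma adjusted p = 0.00901), and was not called without heterozygous THZ1 replicate 1 (log2 difference -0.16) or 2 (log2 difference -0.18). In null cells Hspa5, named for that comparison after its values were seen, fell from 500.14 and 484.85 to 385.83 and 395.72 FPKM (log2 difference -0.33, limma adjusted p = 5.263e-06). Of 17 list genes that met the naming rule there, Slc7a1 and Atf5 held their call in every alternative. The other 15 lost it in 1 to 8 of 16 alternatives, 14 of them without heterozygous THZ1 replicate 1.

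Between the lines under DMSO the ATF4 amino acid targets had the median farthest from 0 of the 7 lists. Of 18 tested, 14 were called lower in null cells and 1 higher, with a median of -0.44 beside -0.07 for all tested genes, of which 41.0% were called lower and 29.0% higher. After median-of-ratios scaling 13 were lower and 2 higher. Cbs, an enzyme of cysteine synthesis, was at 5.67 and 5.40 FPKM in heterozygous and 0.56 and 0.42 in null cells (log2 difference -2.13, SE 0.09, limma adjusted p = 6.848e-10). Psat1, of serine synthesis, was at 176.93 and 184.50 against 89.72 and 87.49 FPKM (log2 difference -1.02, limma adjusted p = 2.38e-10). Cth was the gene called higher, at 0.64 (limma adjusted p = 2.683e-05).

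The other lists had calls in both directions between the lines, to be read beside the same 29.0% higher and 41.0% lower. Chaperones had 9 higher and 10 lower of 22, degradation and translocation genes 4 and 9 of 21, sensor partners 5 and 3 of 10, eIF2 genes 4 and 10 of 16, stress regulators 7 and 6 of 19, and synthetases 3 and 8 of 12. Atf5 was 1.46 higher on the log2 scale in null cells (limma adjusted p = 3.851e-10), Creb3 0.74 (limma adjusted p = 2.29e-07) and Calr, the chaperone calreticulin, 0.44 (limma adjusted p = 7.002e-07). The chaperone partner Sdf2l1 had -1.37 (limma adjusted p = 9.087e-09), and Pdia5 had -0.91 (limma adjusted p = 4.668e-08). Of the stress regulators, Stc2 had -0.87 (limma adjusted p = 2.355e-08) and Atf3 -0.73 (limma adjusted p = 4.431e-06). Tnfrsf10b, of the same list as Atf5, had 0.48 (limma adjusted p = 1.018e-06). The eIF2 genes ranged from -0.77 to 1.5 in log2 difference. Eif2b5, a subunit of the exchange factor for eIF2, was at the low end (limma adjusted p = 1.11e-08) and Ppp1r15b, the constitutive relative of Ppp1r15a, had -0.70 (limma adjusted p = 2.077e-07), while Eif2ak2 had 0.49 (limma adjusted p = 0.000467).

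To describe how the members vary together, each gene's log2(FPKM + 1) values in the 8 libraries were centred on their mean, and pairs of genes were compared by the root mean square (RMS) difference. These figures describe 8 libraries that include those on which Chac1 and Xbp1 were chosen. Xbp1 and Trib3 differed by 0.286, Atf4 and Trib3 by 0.304, Xbp1 and Chac1 by 0.327, Xbp1 and Atf4 by 0.493, Trib3 and Chac1 by 0.572, and Atf4 and Chac1 by 0.813. Ern1, Eif2ak3, Atf6, Ppp1r15a and Sesn2 differed from each other by 0.099 to 0.368. The nearest member to Ddit3 was Eif2ak3, at 0.593.

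The nearest genes and the counts within 0.25 that follow are of tested genes other than the 10 members. Genes with no symbol, predicted genes, Rik clones and LOC entries were passed over. Most like Atf4 were Cbx6 (RMS difference 0.0535), Pip4p1 (0.0537) and Proser3 (0.0593), and 443 genes lay within 0.25 of it. For Ddit3 they were Il34 (0.0938), Azin2 (0.107) and Birc3 (0.126), with 58 genes within 0.25. Il34, for example, was at 11.21 and 11.89 FPKM in heterozygous DMSO, 10.12 and 9.17 in heterozygous THZ1, 26.64 and 27.48 in null DMSO and 8.61 and 9.02 in null THZ1 libraries. Only 3 genes lay within 0.25 of Xbp1: Srsf3 (0.197), Spns3 (0.234) and Lrrc14 (0.235). For Trib3 the nearest were Srsf3 (0.154), Rars2 (0.160) and Lrrc14 (0.170), of 27 genes within 0.25. No gene of this set came that close to Chac1, for which Kcnj16 was nearest (0.491), ahead of Lrrc14 (0.502) and Spns3 (0.506).

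Ppp1r15a was nearest to Aplp2 (0.0628), Cpeb3 (0.0649) and Vps37b (0.0750), and Ern1 to Fam126b (0.0689), Usp6nl (0.0829) and Tmtc3 (0.0877). Eif2ak3 was nearest to Sdc2, Magi3 and Tpm4 (0.0293 to 0.0369), Atf6 to Pdcd6ip, Fxr1 and Tmem30a (0.0131 to 0.0254), and Sesn2 to Dtd1, Tle1 and BC005624 (0.0371 to 0.0432). Many genes lay within 0.25 of each of these members: 584 of Ppp1r15a, 1634 of Ern1, 2005 of Eif2ak3, 3882 of Atf6 and 3725 of Sesn2.

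**Figure D4:**
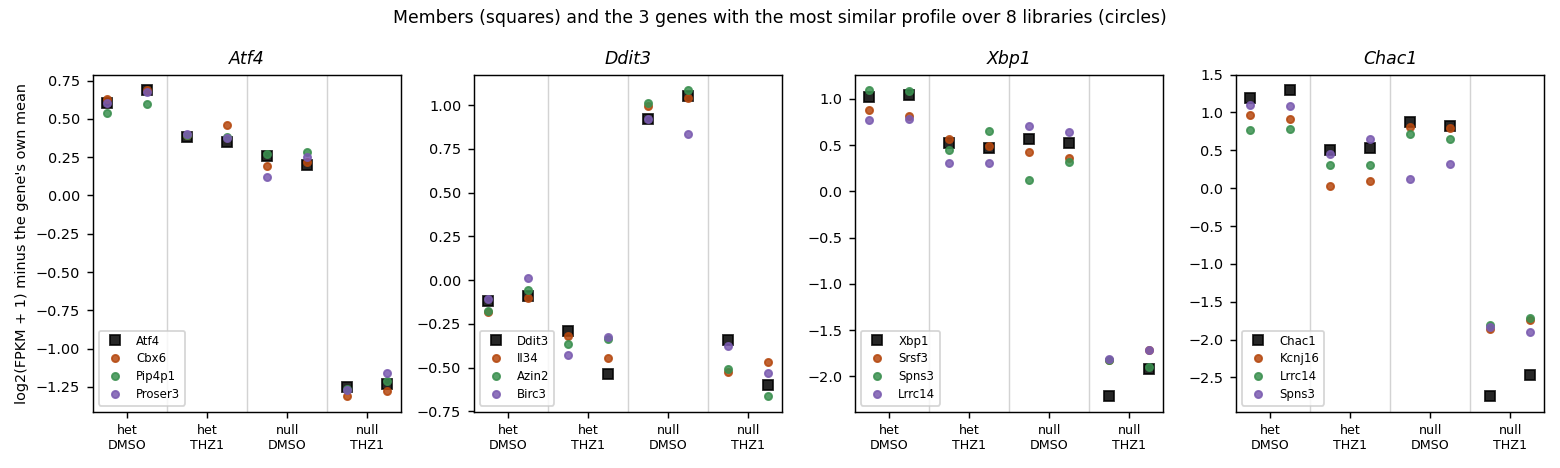
Profiles of Atf4, Ddit3, Xbp1 and Chac1 (squares) and of the 3 most similar genes that are not members (circles) over the 8 libraries (x axis, 2 per group), as log2(FPKM + 1) minus the gene's own mean (y axis, a scale per panel). Cbx6, Pip4p1 and Proser3 lie on Atf4 within 0.06 (RMS), and the 3 genes shown beside Chac1 reach less far down in the null THZ1 libraries than Chac1 does.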

How the data were processed

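Poly(A) RNA of 8 libraries was measured. The 8 deposited files give FPKM as the authors computed it, per gene, rounded to 2 decimals. The tools listed are Bowtie2 and DESeq2 and the build mm10, per the submitters' processing notes. How fragments were counted, with which annotation and strand setting, is not given in the sources.

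Symbols and coordinates came from RefSeq on GRCm38.p6, which named 18592 of 18631 gene IDs. FPKM values are not counts, so limma 3.58.1 in R 4.3.3 was fitted to log2(FPKM + 1), 1 mean per group, with 4 residual degrees of freedom, two-sided, for 10731 genes with a mean of at least 1 FPKM. Errors are limma standard errors with n = 2 libraries per group. There were 5 comparisons. No counts are given: depth was estimated from steps in the values of low, short genes. The fit was tested on simulated data.

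The members, lists and motifs were chosen with earlier results of these data known. Named genes are the members, Pkd1, up to 2 called genes each way per list and comparison, and the 3 genes outside the members that are nearest to each member. List genes are named for the first 4 comparisons only, with those of the difference between responses among the results for a closer look. Some genes that the rule would name, in the counts but not printed, are not reported here. Alternatives were a pseudocount of 0.1, no filter or one at 5 FPKM, median-of-ratios, upper-quartile and equal-total scaling, a replicate block, each library left out, and, chosen after seeing the data, 2 libraries left out together.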

Additional observations from a re-analysis of the deposited data

Results flagged for a closer look

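Results are listed here because their THZ1 response differed between the lines by a test of the difference itself, limma's interaction term at an adjusted p below 0.05. Values are null minus heterozygous responses on the log2(FPKM + 1) scale. Among the members they were Ern1 (0.64), Ppp1r15a (0.65) and Atf6 (0.23), with a higher response in null cells, and Trib3 (-2.15), Atf4 (-1.19) and Ddit3 (-1.15), with a lower one.

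In the pathway lists the named genes with a higher response in null cells were Hyou1 (0.44), Ero1a (0.43), Sec61a1 (0.29), Os9 (0.28), Tmbim6 (0.35), Bcap31 (0.34), Nck1 (0.36) and Bbc3 (0.54). Hyou1, Ero1a, Sec61a1 and Os9 serve folding, translocation and degradation in the ER. Named genes with a lower response were Syvn1 (-0.89), Herpud1 (-0.77), Dnajb9 (-0.58), Cnpy2 (-0.50), Creb3 (-1.20) and Traf2 (-0.81) of the ER lists, Eif2ak2 (-0.76) and Eif2b1 (-0.55) of the eIF2 list, Slc1a4 (-1.03) and Slc38a2 (-0.81) of the amino acid transporters, Stc2 (-1.05) and Nupr1 (-0.90) of the stress regulators and Iars (-0.67) and Yars (-0.58) of the synthetases. All 22 of these list genes kept their call in all 16 alternatives. Atf6 did not, as given above.

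The median of all tested genes for this difference was -0.19 on the deposited scale and 0.03 after median-of-ratios scaling, so values near these are not apart from the rest. All of these responses share the DMSO libraries of their line.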

How the results depend on the processing

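Counts of called genes in the comparison of lines under DMSO, of THZ1 in null cells, of the difference between responses and of lines under THZ1 stayed within 1.5 times under all 16 alternatives. THZ1 in heterozygous cells did not: 2406 genes were called, against 1309 with no filter on low values and 797 to 2534 with 1 library left out (1153 without heterozygous DMSO replicate 1, 797 and 1048 without THZ1 replicate 1 and 2). Of the 8 tested members 3 were called there, against 1 with no filter and 1 to 3 with 1 library left out (1 without DMSO replicate 1 or THZ1 replicate 2). Fewer genes pass when 1 library is left, and that lone sample is assumed to vary like the other groups. Ddit3 between the lines under THZ1 reversed from -0.06 to 0.24 with median-of-ratios and 0.22 with upper-quartile scaling; the cause was not tested. Of the values of members under an alternative, 716 kept their status, whether called, not called or untested. Of the rest, 30 lost and 10 gained a call, 37 untested values moved and 2 changed sign where a call was involved. Changes of sign without a call, as of Ern1 between the lines under DMSO (-0.19 to 0.16), were counted as kept. Of the values of list genes, 1382 held their call and 72 lost it. With the pseudocount 0.1, Chac1 in null cells with THZ1 was at -4.38. Deviations of same-numbered samples correlated at -0.09 to 0.14 between groups. With 2 libraries per group this cannot settle whether replicate numbers pair the libraries. The replicate block called 2636 genes higher and 5476 lower with THZ1 in null cells, against 2645 and 5479, and changed 1 member's call, Sesn2 there (limma adjusted p = 0.0390). With 2 libraries per group, small differences near the threshold, as of Sesn2, Atf6 and Eif2ak3, are the least certain, and depth limits Chac1 and Trib3 in null THZ1 libraries.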
